A study of Mus musculus with 21 samples.

Results

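Expression of 48 genes of the cell cycle and of DNA replication was followed in livers of mice fed chow or a steatohepatitis diet. The set was defined by gene symbol, and each symbol was matched to its Ensembl identifier on GRCm38. All 48 symbols were found among the 52636 gene identifiers of the count table, and all 48 were among the 17104 genes that passed the filter on low counts. They were read in 3 groups by the phase in which their products act. In all, 10 act in G1 and its exit (Ccnd1, Ccnd2, Ccnd3, Cdk4, Cdk6, Ccne1, Ccne2, Cdk2, E2f1 and E2f2). Another 16 act in or around S phase (Cdc6, Cdc45, Cdt1, Mcm2 to Mcm7, Pcna, Rrm2, Tyms, Tk1, E2f7, E2f8 and Mybl2). The other 22 act in G2 and mitosis (Mki67, Top2a, Ccna2, Ccnb1, Ccnb2, Cdk1, Cdc20, Cdc25b, Cdc25c, Plk1, Aurka, Aurkb, Bub1, Bub1b, Birc5, Tpx2, Kif11, Kif20a, Foxm1, Cenpa, Cenpe and Cenpf).

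The series holds bulk liver RNA-seq from 21 wild type mice, made from total RNA with a stranded kit. Of these, 5 were on normal chow for 8 weeks and carry the label week 0. Another 8 were on CDA-HFD (a high-fat diet lacking choline, with defined amino acids, that brings on fatty liver, inflammation and scarring) for 8 weeks, and 8 more were on it for 16 weeks. No transgene, deletion or drug is named for any group, and the sources used here give no strain, sex or age, so an equal age of the chow mice and either diet group is not shown. No source used here names a batch.

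A cell that leaves quiescence first makes D-type cyclins, which with the kinases Cdk4 and Cdk6 phosphorylate the retinoblastoma protein and release E2F transcription factors. E2F factors switch on the genes that license origins and copy DNA, and a later programme, driven by B-Myb with the MuvB complex and by FoxM1, switches on the genes of mitosis. Adult hepatocytes are mostly quiescent and re-enter the cycle after injury, while immune, stellate and bile duct cells also divide in an injured liver.

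Library totals ran from 29037525 to 48901145 counts. Hepatocyte markers (8 of 8, Alb among them) were present in every group and summed to between 82339 and 457347 CPM (counts scaled to library size with TMM factors). One library stood apart: 8-week replicate 3 had a TMM factor of 0.495 against 0.811 to 1.30 in the other 20, 0.25% mitochondrial counts against 2.22% to 5.34%, and squamous epithelium and skeletal muscle markers that summed to 1498 and 2700 CPM. The 8-week replicates 4 and 5 held exocrine pancreas transcripts (8203 and 383 CPM, at most 79.7 CPM elsewhere). Squamous markers also stood at 269 CPM in 8-week replicate 6 and at 235, 73.2 and 145 CPM in 16-week replicates 1, 4 and 7, against at most 20.6 CPM in the other libraries. They moved with the groups as well: chow livers held 0.184 to 0.631 CPM, and the lowest diet livers 2.56 CPM at 8 weeks and 6.33 CPM at 16 weeks. Counts of members called are therefore also given without 8-week replicate 3. The mitochondrial share and the TMM factor also moved with the groups. The mitochondrial share was 4.23% to 5.34% in chow, at most 3.18% at 8 weeks and 2.37% to 3.15% at 16 weeks. The TMM factor was 0.811 to 0.879 in chow, 0.884 to 1.17 at 8 weeks apart from replicate 3, and 1.15 to 1.30 at 16 weeks. The part of these measures and of the squamous transcripts in the member values was not tested. Scaling by library totals alone in place of TMM moved the median log2 change of all genes by 0.146 at 8 weeks, 0.529 at 16 weeks and 0.38 between 16 and 8 weeks, and raised the share of calls that were higher from 60.1% to 78.3%, from 56.6% to 89.5% and from 49% to 94.8%.

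In both diet groups the mitotic genes had the largest median rise over chow and the S-phase genes a smaller one. The G1 median was the smallest and at 8 weeks did not exceed that of all genes, although cyclin D1 (Ccnd1) rose as much as many mitotic genes. After 8 weeks, 36 of the 48 members were called higher and 2 lower (called: edgeR quasi-likelihood test, Benjamini-Hochberg adjusted p under 0.05 over all 17104 genes); among all genes 51.3% were called, 30.8% higher and 20.5% lower. By phase, 4 of 10 G1 members rose and none fell, 10 of 16 S members rose and 2 fell, and 22 of 22 mitotic members rose. In bulk tissue, more dividing cells and more transcript per cell cannot be told apart, and the dividing cell type is not resolved. The median log2 changes were 0.15, 0.72 and 2.46 for G1, S and mitotic members, beside 0.16 over all genes. Every one of the 8 diet livers exceeded every one of the 5 chow livers for 3 G1, 2 S and 19 mitotic members, a separation that 15.3% of all genes showed. Without 8-week replicate 3, 37 members rose (4 G1, 11 S and 22 mitotic) and 2 fell. In that fit 5362 of 17033 genes were higher and 4386 lower.

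After 16 weeks, 38 members were called higher and 3 lower, where 51.9% of all genes were called, 29.4% higher and 22.5% lower. At that time 5 of 10 G1 members rose and 1 fell, 11 of 16 S members rose and 2 fell, and 22 of 22 mitotic members rose. The medians were 0.43, 0.69 and 3.13 on the log2 scale, beside 0.03 over all genes. Diet and chow livers did not overlap for 4 G1, 9 S and 22 mitotic members that were higher and for 1 S member that was lower, and 27.2% of all genes were higher without overlap. Of all 17104 genes, 3985 were lower without overlap. Both comparisons use the same 5 chow livers. Without 8-week replicate 3, whose omission changes the shared estimate of spread, 39 members rose and 3 fell at 16 weeks. In that fit 5953 of 17033 genes were higher and 5355 lower at 16 weeks. No test compared the phases with each other.

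**Figure D1:**
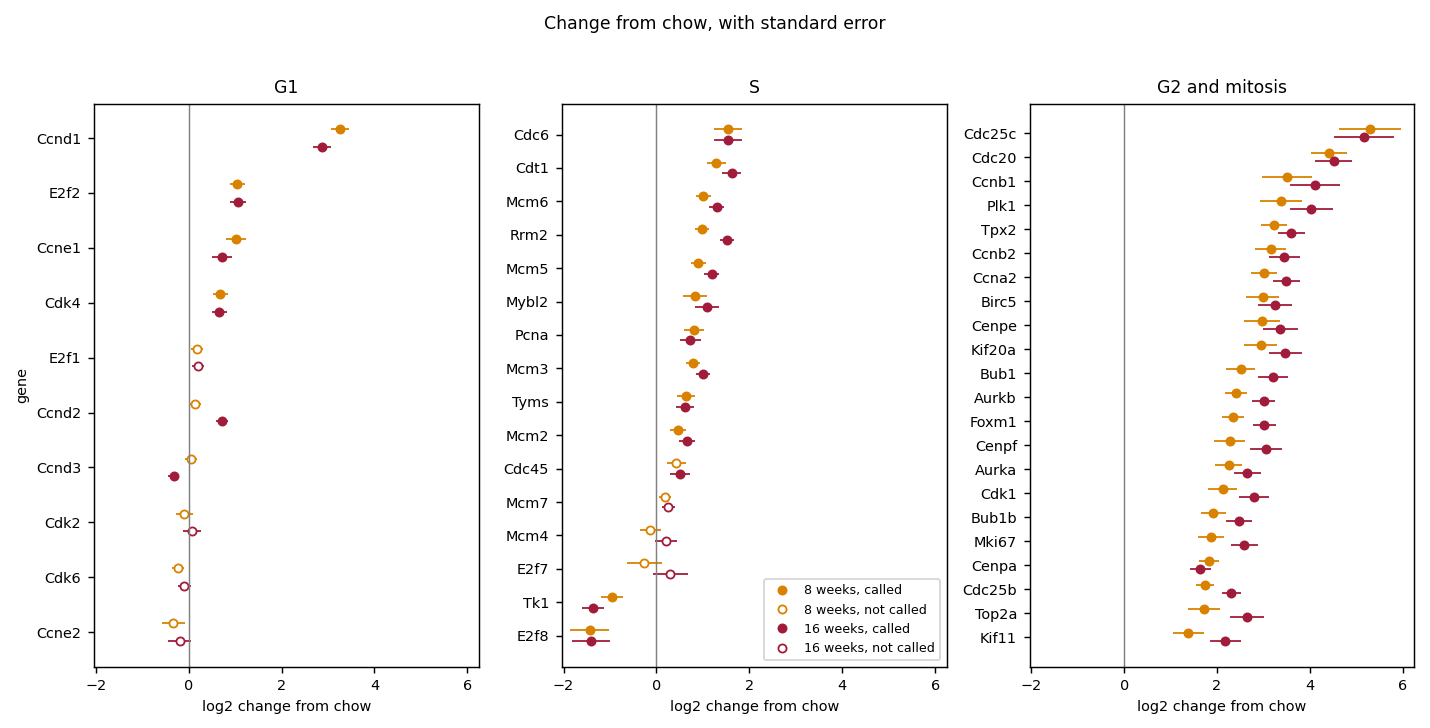
Log2 change from chow (horizontal axis, bars are standard errors) for each of the 48 genes in 3 panels, G1, S and G2 with mitosis; orange is 8 weeks and red 16 weeks of diet, filled points were called and open points were not. The mitotic genes lie between 1.38 and 5.29, while S-phase genes lie between -1.44 and 1.62 and G1 genes other than Ccnd1 between -0.33 and 1.06.

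The upstream sequences of the members were searched for the motifs of these factors. Of the 48 members, 38 had an entry in the RefSeq promoter table (GRCm38.p6, 41 starts), and the 250 bases before each start were searched on both strands for the CHR (cell cycle genes homology region, TTTGAA or TTTAAA, bound by MuvB complexes), for the strict E2F motifs TTTGGCGC, TTTCCCGC, TTTGGCGG and TTTCCCGG, and for the CCAAT box bound by NF-Y. Each motif was counted on its own, so matches may share bases. A CHR match was found in 11 of 16 mitotic promoters (68.8%), 5 of 16 S promoters (31.2%) and 2 of 9 G1 promoters (22.2%), beside 25.2% of all 32851 promoters in the table. CCAAT was found in 15 of 16 mitotic promoters (93.8%), 68.8% of S and 44.4% of G1 promoters, beside 33.8% of all, and 10 of 16 mitotic promoters (62.5%) held 2 or more, beside 10.1% of all. E2F letters were found in 5 of 16 S promoters (31.2%), 1 of 9 G1 promoters (11.1%) and 1 of 16 mitotic promoters (6.2%), beside 2.7% of all. The mitotic promoters without a CHR match were those of Aurka, Bub1, Bub1b, Cdc25b and Cenpe, Birc5 had no CCAAT, and the 16 promoters stand for 16 of the 22 mitotic members. The shares were not tested against each other. These are letter matches, not shown to be bound, and a lack of a match says only that these letters are absent from the window.

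The promoters of 9 members, chosen with their matches known, are printed as examples: 5 mitotic genes with a CHR match, the mitotic gene Bub1 without one, the helicase subunits Mcm6 and Mcm3, and E2f8, which fell. Each run gives the 120 bases just before the RefSeq start on the gene's strand, 5′ to 3′, with CHR, E2F and CCAAT matches in capitals (TTCAAA and ATTGG are the CHR and CCAAT letters read on the other strand). The positions are Cdk1 chr10:69352913-69353032 (minus strand), Ccnb1 chr13:100786487-100786606 (minus), Plk1 chr7:122159315-122159434 (plus), Top2a chr11:99024190-99024309 (minus), Cdc20 chr4:118437344-118437463 (minus), Mcm6 chr1:128359706-128359825 (minus), Mcm3 chr1:20820313-20820432 (minus), E2f8 chr7:48881597-48881716 (minus) and Bub1 chr2:127831860-127831979 (minus).
Cdk1: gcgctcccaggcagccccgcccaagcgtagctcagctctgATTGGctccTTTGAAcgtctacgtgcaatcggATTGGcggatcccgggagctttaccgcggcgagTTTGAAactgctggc
Ccnb1: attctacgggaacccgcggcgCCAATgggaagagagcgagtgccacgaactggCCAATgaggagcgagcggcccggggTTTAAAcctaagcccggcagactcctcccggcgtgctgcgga
Plk1: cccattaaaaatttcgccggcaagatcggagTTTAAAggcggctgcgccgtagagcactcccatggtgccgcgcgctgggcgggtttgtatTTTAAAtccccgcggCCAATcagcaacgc
Top2a: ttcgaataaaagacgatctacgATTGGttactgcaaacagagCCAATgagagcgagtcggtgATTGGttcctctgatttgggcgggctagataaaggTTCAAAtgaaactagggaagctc
Cdc20: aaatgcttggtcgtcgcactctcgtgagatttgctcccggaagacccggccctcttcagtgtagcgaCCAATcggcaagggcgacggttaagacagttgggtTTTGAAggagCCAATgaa
Mcm6: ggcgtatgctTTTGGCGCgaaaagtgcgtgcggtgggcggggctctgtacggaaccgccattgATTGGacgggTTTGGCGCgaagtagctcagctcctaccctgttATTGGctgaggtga
Mcm3: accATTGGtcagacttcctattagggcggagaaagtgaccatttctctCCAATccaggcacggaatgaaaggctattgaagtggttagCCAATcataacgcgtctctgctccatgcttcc
E2f8: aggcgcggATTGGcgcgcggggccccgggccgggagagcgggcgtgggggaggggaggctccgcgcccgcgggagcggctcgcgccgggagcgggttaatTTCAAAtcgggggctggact
Bub1: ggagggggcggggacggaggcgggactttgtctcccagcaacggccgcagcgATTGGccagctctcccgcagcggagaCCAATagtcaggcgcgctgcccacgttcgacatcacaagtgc
In the runs of Cdk1, Ccnb1, Top2a and Cdc20 a CHR match lies downstream of a CCAAT box, and in Plk1 both CHR matches lie upstream of the single CCAAT box. Mcm6 holds 2 E2F matches and 2 CCAAT boxes and no CHR, Mcm3 holds 3 CCAAT boxes alone, and E2f8 holds 1 CHR and 1 CCAAT box. Of the other helicase subunits in the table, Mcm2 and Mcm5 hold 1 CHR each within the 250 bases, and Mcm7 holds none. Bub1 holds 2 CCAAT boxes and no CHR.

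**Figure D2:**
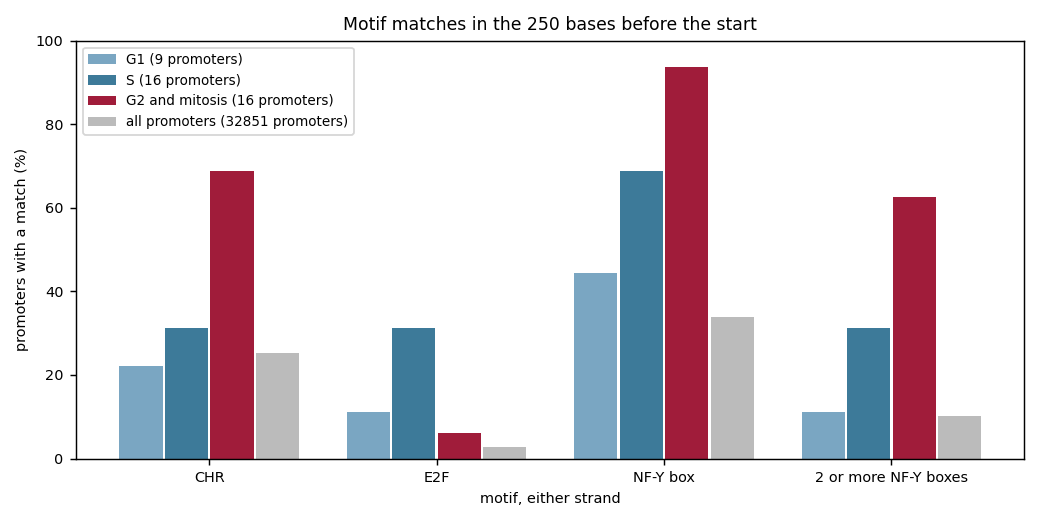
Share of promoters (vertical axis, percent) with a match to each motif (horizontal axis) in the 250 bases before the RefSeq start, for 9 G1, 16 S and 16 mitotic promoters and for all 32851 promoters; NF-Y box stands for CCAAT. The mitotic bars are the tallest for the CHR (68.8%) and CCAAT (93.8%), and the S bar for E2F (31.2%).

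Among the G1 genes, cyclin D1 (Ccnd1, ENSMUSG00000070348, chromosome 7, 144929931 to 144939925, GRCm38), which couples growth signals to Cdk4 and Cdk6, showed the largest change. It stood at 27.6, 23.5, 26.3, 19.8 and 27.7 CPM in the 5 chow livers. It ranged from 160 to 349 CPM (median 215) at 8 weeks and from 139 to 227 CPM (median 183) at 16 weeks. The lowest diet liver was far above the highest chow liver, and the diet groups overlapped each other. Ccnd1 was 9.56-fold higher at 8 weeks (log2 change 3.26 ± 0.20 SE, adjusted p = 3.68e-10) and 7.29-fold higher at 16 weeks (2.87 ± 0.20, adjusted p = 6.63e-10). Exons of LTO1 overlap those of Ccnd1 on the other strand over 1100 bases; LTO1 itself stood at 15.5, 15.2 and 15.4 CPM on average in chow, 8-week and 16-week livers.

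Cyclin D2 (Ccnd2), another partner of Cdk4 and Cdk6, had 14.9, 18.3, 17.0, 15.1 and 20 CPM in chow. Its range was 15.8 to 23.4 CPM (median 17.8) at 8 weeks and 23.6 to 34.9 CPM (median 27.7) at 16 weeks. At 8 weeks it overlapped chow, and at 16 weeks every liver was above all chow and all 8-week livers. The change was 0.13 ± 0.13 at 8 weeks (adjusted p = 0.397) and 0.72 ± 0.13 at 16 weeks (adjusted p = 0.000113). Ccnd3, the other D cyclin, averaged 22.1 ± 2.16, 22.8 ± 4.33 and 17.7 ± 1.72 CPM (SD, n = 5, 8 and 8), with log2 changes of 0.05 ± 0.12 (adjusted p = 0.765) and -0.32 ± 0.12 (adjusted p = 0.0322). The lower call at 16 weeks was lost when chow replicate 1, 4 or 5 was omitted, or 16-week replicate 5, 6, 7 or 8 (adjusted p between 0.0512 and 0.0809), and the sign turned (0.21) when libraries were scaled by their totals alone. Its opposite-strand neighbour Bysl, which shares 361 exon bases, was also lower at 16 weeks (-0.35 ± 0.11, adjusted p = 0.0107), and its part in the Ccnd3 value was not tested.

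Of the G1 kinases, Cdk4 rose and Cdk6 and Cdk2 were not called at either time. Cdk4 was at 35.2, 35.4, 40.1, 33.4 and 34.8 CPM in chow, from 42.9 to 86.1 CPM (median 49) at 8 weeks and from 48.1 to 70.4 CPM (median 54.2) at 16 weeks. All diet livers were above all chow livers, by 0.68 ± 0.16 (adjusted p = 0.00208) and 0.66 ± 0.16 (adjusted p = 0.00186) on the log2 scale. Tspan31, which shares 641 exon bases with Cdk4 on the other strand, averaged 277, 394 and 291 CPM and was called higher at 8 weeks (0.50 ± 0.15, adjusted p = 0.00796) and not at 16 weeks (0.07 ± 0.15, adjusted p = 0.716). Cdk6 had 24.9, 33.2, 28.8, 34.3 and 31.3 CPM in chow, 21.3 to 31.9 (median 27.5) at 8 weeks and 22.3 to 33.7 (median 30.8) at 16 weeks, so the 3 groups overlapped, and the changes were -0.22 ± 0.13 (adjusted p = 0.159) and -0.09 ± 0.13 (adjusted p = 0.594). Cdk2, the partner of cyclin E, gave -0.09 ± 0.19 (adjusted p = 0.692) and 0.07 ± 0.19 (adjusted p = 0.798).

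Cyclin E1 (Ccne1), which drives entry into S phase with Cdk2, was at 1.62, 0.746, 1.52, 1.07 and 1.51 CPM in chow. It ran from 1.59 to 3.18 CPM (median 2.70) at 8 weeks and from 1.35 to 2.80 CPM (median 2.01) at 16 weeks. In each diet group a single liver reached down into the chow range. Ccne1 rose by 1.02 ± 0.22 (adjusted p = 0.00071) and 0.72 ± 0.21 (adjusted p = 0.00739). Cyclin E2 (Ccne2) was not called (-0.33 ± 0.25, adjusted p = 0.287, and -0.19 ± 0.25, adjusted p = 0.567). Its opposite-strand neighbour Ints8, with 609 shared exon bases, was lower (-0.80 ± 0.14 and -0.71 ± 0.14), and its part was not tested. The activator E2f1 had 7.39, 7.0, 6.54, 7.33 and 6.0 CPM in chow, 6.26 to 10.8 (median 7.51) at 8 weeks and 6.42 to 9.31 (median 7.88) at 16 weeks; the groups overlapped and the changes of 0.18 ± 0.13 (adjusted p = 0.247) and 0.20 ± 0.13 (adjusted p = 0.194) were not called. E2f2, another activator, rose by 1.05 ± 0.17 (adjusted p = 4.64e-05) and 1.06 ± 0.17 (adjusted p = 2.63e-05), without overlap with chow.

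**Figure D3:**
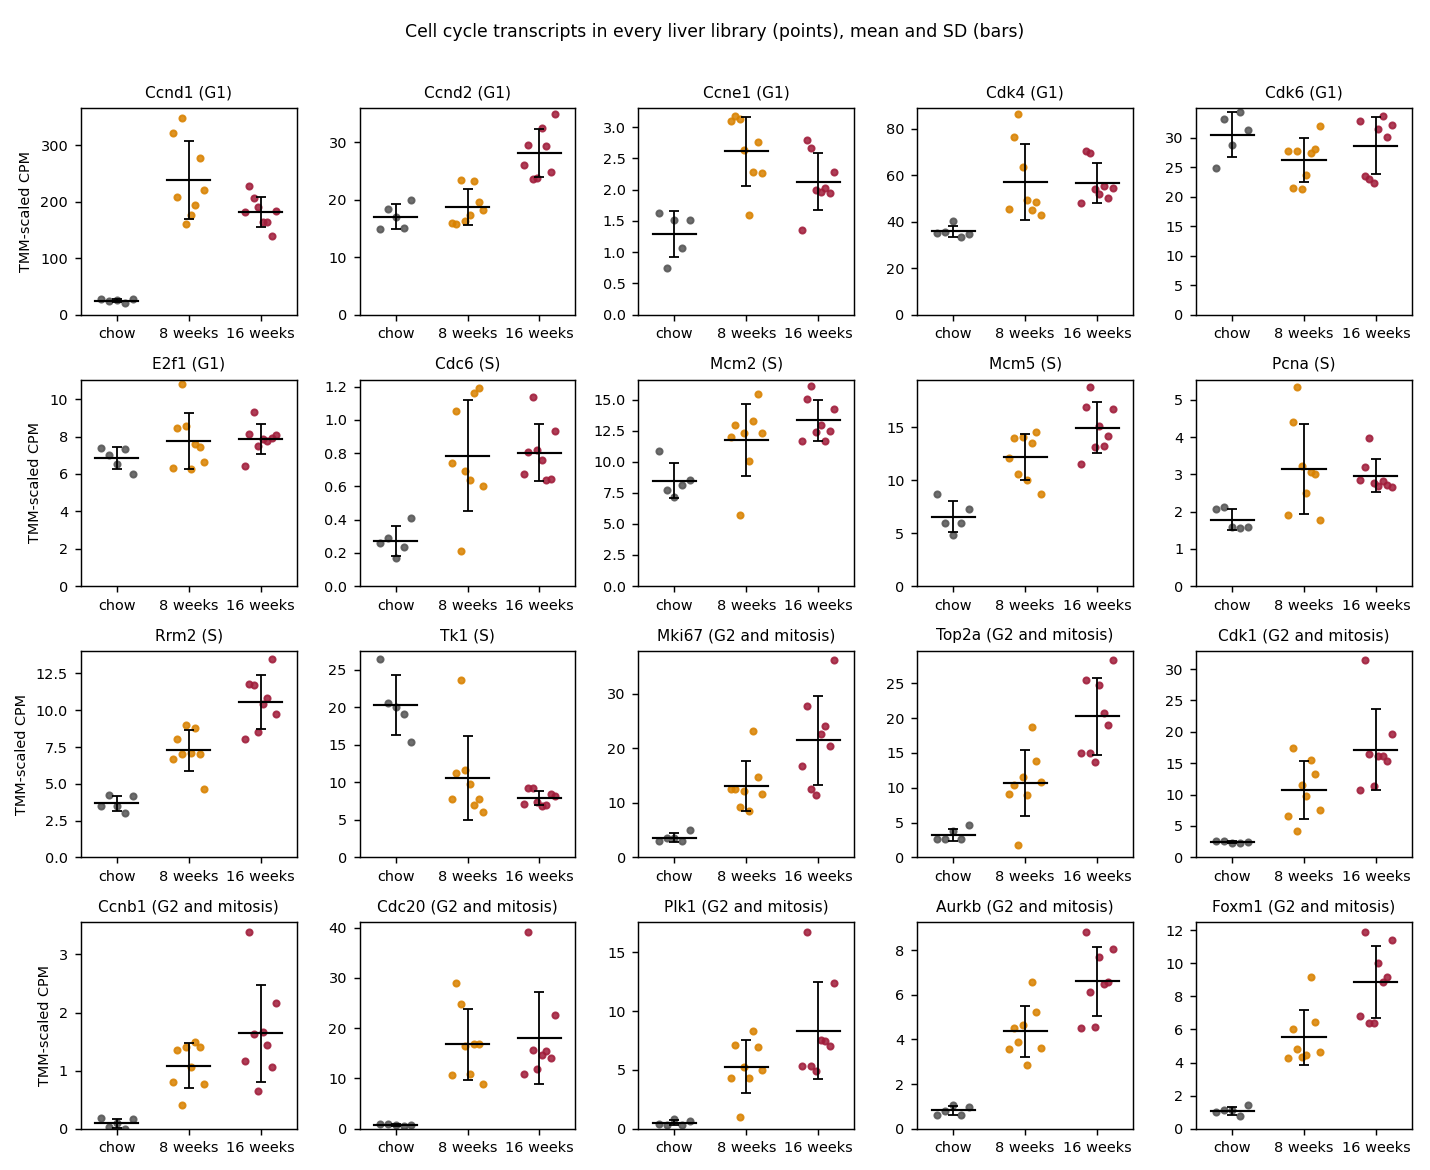
Each point is 1 liver library, as TMM-scaled CPM (vertical axis, linear from 0) for 20 genes in chow (grey, n = 5), 8 weeks (orange, n = 8) and 16 weeks (red, n = 8); bars are the mean and SD. Ccnd1 and the mitotic genes drawn separate from chow, except Top2a in 8-week replicate 3, at 1.81 CPM. Cdk6 and E2f1 overlap chow, and Tk1 is lower on the diet except in 8-week replicate 3, at 23.6 CPM.

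The S-phase members divided into licensing and helicase genes that mostly rose, nucleotide enzymes that rose apart from Tk1, and regulators with mixed values. Cdc6 and Cdt1, which load the MCM helicase on origins, rose most. Cdc6 was at 0.257, 0.287, 0.169, 0.232 and 0.411 CPM in chow, from 0.209 to 1.19 (median 0.714) at 8 weeks and from 0.637 to 1.14 (median 0.782) at 16 weeks. One 8-week liver, replicate 3, lay within the chow range and all other diet livers lay above it. Its changes were 1.54 ± 0.31 at both times (adjusted p = 0.000464 and 0.000293). Cdt1 changed by 1.29 ± 0.21 (adjusted p = 3.66e-05) and 1.62 ± 0.21 (adjusted p = 1.53e-06).

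Of the 6 subunits of the MCM2-7 helicase, which unwinds DNA at the fork, Mcm2, Mcm3, Mcm5 and Mcm6 rose at both times and Mcm4 and Mcm7 were not called. Mcm2 had 10.9, 7.74, 7.15, 8.17 and 8.52 CPM in chow, 5.70 to 15.5 (median 12.3) at 8 weeks and 11.7 to 16.1 (median 12.7) at 16 weeks. The 16-week livers lay above all chow livers, while the 8-week group overlapped chow and its replicate 3 lay below it. Mcm2 changed by 0.47 ± 0.17 at 8 weeks (adjusted p = 0.025) and 0.65 ± 0.17 at 16 weeks (adjusted p = 0.00291), and the 8-week call was lost without chow replicate 2, 3 or 4 (adjusted p = 0.0609, 0.0703 and 0.0543), with no filter on low counts (0.0509) and in a fit of only those 2 groups (0.116). Mcm5 had 8.72, 5.99, 4.79, 6.0 and 7.26 CPM in chow, 8.68 to 14.6 (median 12.8) at 8 weeks and 11.5 to 18.8 (median 14.7) at 16 weeks. Only the lowest 8-week liver fell within the chow range, and Mcm5 changed by 0.90 ± 0.16 (adjusted p = 0.000134) and 1.19 ± 0.16 (adjusted p = 3.38e-06). Mcm6 gave the largest helicase changes, 1.01 ± 0.16 and 1.30 ± 0.16 (adjusted p = 2.77e-05 and 8.23e-07). Mcm4 gave -0.13 ± 0.23 and 0.21 ± 0.23 (adjusted p = 0.663 and 0.487), and Mcm7 gave 0.18 ± 0.13 and 0.26 ± 0.13 (adjusted p = 0.239 and 0.092). Without 8-week replicate 3 Mcm7 was called at 16 weeks (0.26, adjusted p = 0.0275). Cdc45, which joins the helicase when it fires, was not called at 8 weeks (0.43 ± 0.21, adjusted p = 0.0835, and 0.0478 without replicate 3 of that group). At 16 weeks Cdc45 was called (0.51 ± 0.21, adjusted p = 0.0426), and that call was lost with DESeq2 size factors (adjusted p = 0.0547) and on omitting chow replicate 2, 4 or 5, 8-week replicate 8, or 16-week replicate 2, 3 or 8 (adjusted p between 0.0502 and 0.115).

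**Figure D4:**
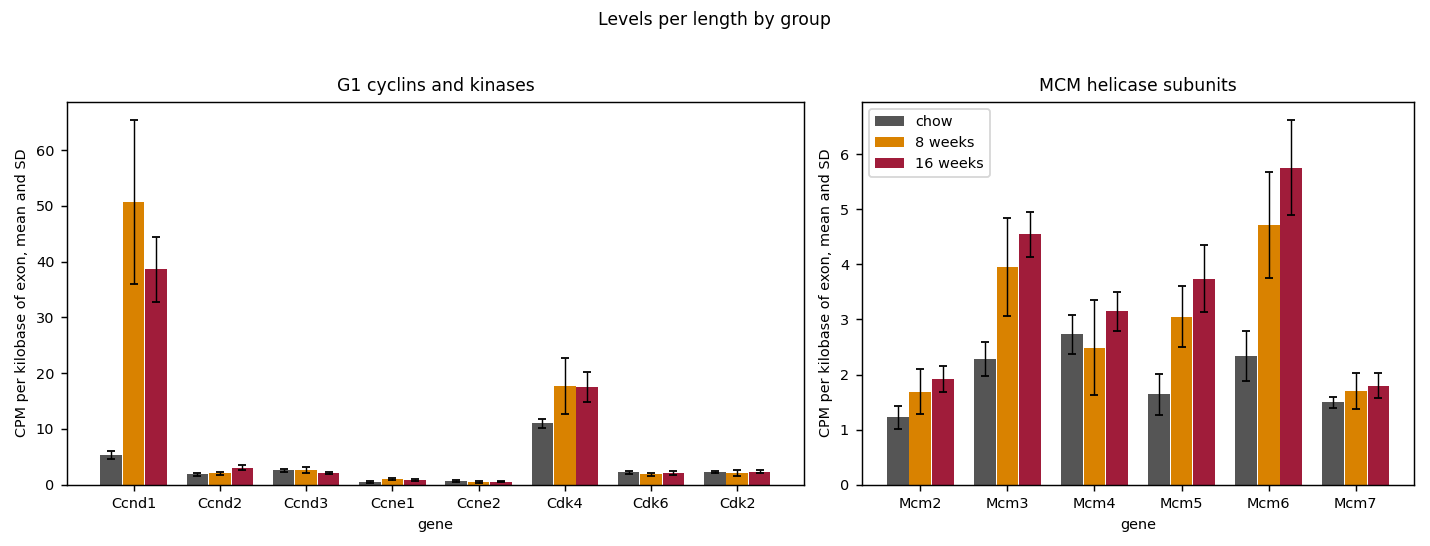
Mean level per kilobase of exon (vertical axis, CPM per kb; bars are SD) of G1 cyclins and kinases (left) and MCM subunits (right) in chow (grey, n = 5), 8-week (orange, n = 8) and 16-week livers (red, n = 8). Ccnd1 went from 5.30 to 50.7 and 38.6, and Mcm2, Mcm3, Mcm5 and Mcm6 rose while Mcm4 and Mcm7 were not called.

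Per kilobase of exon, which allows levels of different genes to be set side by side, Cdk4 was the highest G1 gene in chow at 11 ± 0.787 CPM per kb (SD, n = 5), with Ccnd1 at 5.30 ± 0.716. On the diet the order was turned: Ccnd1 stood at 50.7 ± 14.7 and 38.6 ± 5.78 CPM per kb (n = 8 each) and Cdk4 at 17.6 ± 5.02 and 17.5 ± 2.62. The D cyclins Ccnd2 and Ccnd3, with 1.81 and 2.52 CPM per kb in chow, stood at 1.99 and 2.60 after 8 weeks and at 2.99 and 2.02 after 16 weeks. Helicase subunits form a complex with 1 copy of each, yet their transcripts spread from 1.22 (Mcm2) to 2.73 CPM per kb (Mcm4) in chow and from 1.80 (Mcm7) to 5.76 (Mcm6) at 16 weeks. The order also differed: Mcm4 was the highest of the 6 in chow, where its spread (2.73 ± 0.354) overlapped that of Mcm3 (2.28 ± 0.307) and Mcm6 (2.34 ± 0.459). On the diet Mcm6 was the highest, at 4.72 ± 0.957 and 5.76 ± 0.865, and its spread overlapped that of Mcm3 at both times (3.95 ± 0.892 and 4.55 ± 0.406).

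Among the enzymes and fork factors, Pcna, the sliding clamp of the DNA polymerases, was at 2.06, 2.12, 1.59, 1.56 and 1.59 CPM in chow, from 1.76 to 5.35 (median 3.02) at 8 weeks and from 2.67 to 3.97 (median 2.80) at 16 weeks. The 8-week group overlapped chow and the 16-week group did not. Pcna rose by 0.81 ± 0.22 (adjusted p = 0.00558) and 0.73 ± 0.22 (adjusted p = 0.00895). Rrm2, the regulated subunit of ribonucleotide reductase, had 3.49, 4.22, 3.47, 3.04 and 4.19 CPM in chow, 4.64 to 8.97 (median 7.05) at 8 weeks and 8.04 to 13.5 (median 10.6) at 16 weeks. Every diet liver was above every chow liver, and Rrm2 rose by 0.98 ± 0.16 (adjusted p = 3.8e-05) and 1.52 ± 0.16 (adjusted p = 1.11e-07). Tyms, which makes thymidylate, rose by 0.64 ± 0.19 and 0.61 ± 0.19 (adjusted p = 0.00772 and 0.00924), and the 8-week call was lost in a fit of only chow and 8-week livers (0.58, adjusted p = 0.0529).

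Thymidine kinase 1 (Tk1, ENSMUSG00000025574, chromosome 11, 117815526 to 117826092), the salvage enzyme of the same pathway, went the other way. It was at 26.4, 20.6, 20, 19.1 and 15.3 CPM in chow, from 6.06 to 23.6 (median 8.78) at 8 weeks and from 6.89 to 9.20 (median 7.76) at 16 weeks. All 16-week livers were below all chow livers, and at 8 weeks replicate 3 (23.6 CPM) alone reached the chow range. Tk1 fell by 0.95 ± 0.24 at 8 weeks (adjusted p = 0.00267; -1.23 without that replicate) and by 1.36 ± 0.24 at 16 weeks (adjusted p = 6.02e-05). Afmid, a kynurenine pathway enzyme whose exons share 83 bases with Tk1 on the other strand, averaged 77.4 ± 14.3, 10.9 ± 4.37 and 7.29 ± 1.81 CPM and was also called lower (-2.82 ± 0.25 and -3.41 ± 0.25, adjusted p = 2.84e-08 and 1.5e-09). No source used here says whether the counting used strand, and the part of Afmid in the Tk1 values was not tested.

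Of the repressor E2Fs, E2f8 fell and E2f7 was not called. E2f8 averaged 14.8 ± 8.26, 5.41 ± 3.08 and 5.56 ± 2.30 CPM (SD, n = 5, 8 and 8), with 6.88 CPM in the lowest chow liver and 11.5 and 10.6 CPM in the highest 8-week and 16-week livers, so the groups overlapped. Its changes were -1.44 ± 0.41 (adjusted p = 0.00638) and -1.41 ± 0.41 (adjusted p = 0.00597). The 16-week call was lost when libraries were scaled by their totals alone (-0.87, adjusted p = 0.123). Gm2788, a noncoding transcript with 610 exon bases in common on the other strand, averaged 50.9, 31.7 and 13.2 CPM and was called lower at 16 weeks (-1.94 ± 0.38, adjusted p = 0.000204) and not at 8 weeks (-0.68 ± 0.38, adjusted p = 0.135); its part was not tested. E2f7 gave -0.26 ± 0.37 and 0.30 ± 0.37 (adjusted p = 0.575 and 0.523) with at most 1.38 CPM in any library. Mybl2, which encodes the B-Myb factor of the mitotic programme, rose by 0.83 ± 0.25 and 1.09 ± 0.25 (adjusted p = 0.0101 and 0.000983) from 0.287 ± 0.0988 CPM in chow. The 3 members called lower at 16 weeks (Ccnd3, Tk1 and E2f8) are among the 18 of 48 whose exons overlap a gene on the other strand. Also among these 18, but called higher at 16 weeks, were Ccnd1, Ccnd2, Cdk4, Cdc45, Ccna2, Cdc20, Cdc25b, Cdc25c, Plk1 and Kif20a.

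All 22 genes of G2 and mitosis rose at both times, by 2.60-fold to 39.0-fold at 8 weeks and by 3.12-fold to 35.7-fold at 16 weeks. The proliferation marker Mki67 (chromosome 7, 135689784 to 135716361) was at 2.98, 3.5, 3.54, 2.93 and 5.04 CPM in chow, from 8.59 to 23.2 (median 12.3) at 8 weeks and from 11.4 to 36.2 (median 21.6) at 16 weeks. No diet liver overlapped chow. Mki67 was 3.64-fold and 5.96-fold higher (log2 1.86 ± 0.28 and 2.58 ± 0.29, adjusted p = 1.85e-05 and 2.59e-07). Top2a, the topoisomerase that untangles sister chromatids, had 2.61, 2.67, 3.74, 2.61 and 4.60 CPM in chow, 1.81 to 18.7 (median 10.6) at 8 weeks and 13.7 to 28.3 (median 19.9) at 16 weeks. Its lowest 8-week value, in replicate 3, lay below chow, and all other diet livers lay above. The changes were 1.72 ± 0.34 (adjusted p = 0.000392; 1.86 without replicate 3) and 2.64 ± 0.36 (adjusted p = 3.03e-06).

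The kinase of mitotic entry and its cyclins rose together. Cdk1 was at 2.68, 2.58, 2.29, 2.32 and 2.52 CPM in chow, from 4.24 to 17.4 (median 10.6) at 8 weeks and from 10.7 to 31.4 (median 16.1) at 16 weeks, with no overlap with chow. It rose by 2.12 ± 0.31 and 2.79 ± 0.32 (adjusted p = 1.18e-05 and 2.89e-07). Ccnb1, the B cyclin that activates Cdk1, was barely detected in chow at 0.184, 0.0287, 0.101, 0 and 0.164 CPM (15 counts in all), and ran from 0.417 to 1.49 (median 1.21) and from 0.657 to 3.38 (median 1.53) on the diet. All diet livers exceeded chow, by 3.51 ± 0.54 and 4.10 ± 0.54 (adjusted p = 2.06e-05 and 1.93e-06). Ccnb2 and Ccna2 rose by 3.15 ± 0.33 and 3.01 ± 0.28 at 8 weeks and by 3.45 ± 0.33 and 3.49 ± 0.29 at 16 weeks. The phosphatases that switch Cdk1 on differed in size: Cdc25c gave the largest change of all members, 5.29 ± 0.66 and 5.16 ± 0.65 (adjusted p = 1.77e-06 and 1.18e-06), from only 8 counts in the 5 chow livers together, and Cdc25b gave 1.74 ± 0.19 and 2.31 ± 0.20 (adjusted p = 4.56e-07 and 6.93e-09).

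Cdc20 (ENSMUSG00000006398, chromosome 4, 118432901 to 118437352), the activator of the anaphase-promoting complex, combined a high level with a large change. It was at 0.956, 1.0, 0.776, 0.463 and 0.740 CPM in chow, from 8.92 to 28.9 (median 16.6) at 8 weeks and from 10.9 to 39.1 (median 15.1) at 16 weeks. The gap to chow was wide in every liver: 21.2-fold and 22.8-fold on average (4.41 ± 0.39 and 4.51 ± 0.40, adjusted p = 3.18e-08 and 9.4e-09). Elovl1, which shares 53 exon bases with it on the other strand, changed by 0.75 ± 0.25 (adjusted p = 0.0178) and 0.28 ± 0.25 (adjusted p = 0.358), and its part was not tested. Per kilobase of exon it went from 0.422 CPM per kb, below Mcm2 to Mcm7, to 8.98 and 9.64, above all 6. Plk1, the kinase of spindle assembly, was at 0.441, 0.344, 0.843, 0.290 and 0.630 CPM in chow, from 0.973 to 8.27 (median 5.14) and from 4.87 to 16.7 (median 7.25) on the diet. Its lowest diet liver, 8-week replicate 3, was just above the highest chow liver, and Plk1 rose by 3.38 ± 0.45 and 4.03 ± 0.46 (adjusted p = 4.1e-06 and 3.09e-07).

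The other spindle and kinetochore members rose by smaller amounts than Plk1. Aurkb, the kinase of the chromosomal passenger complex, was at 0.625, 0.803, 1.05, 0.637 and 0.986 CPM in chow, from 2.86 to 6.56 (median 4.2) at 8 weeks and from 4.52 to 8.83 (median 6.52) at 16 weeks. The groups did not overlap chow, and Aurkb rose by 2.41 ± 0.23 and 3.0 ± 0.24 (adjusted p = 6.35e-08 and 2.43e-09). Its partner survivin (Birc5) rose by 2.98 ± 0.36 and 3.25 ± 0.37. Aurka and its activator Tpx2 rose by 2.25 ± 0.29 and 3.22 ± 0.28 at 8 weeks, and the checkpoint genes Bub1 and Bub1b by 2.51 ± 0.31 and 1.92 ± 0.27. The kinesin Kif11 gave the smallest 8-week change (1.38 ± 0.33, adjusted p = 0.00179) and Cenpa, the centromeric histone variant, the smallest 16-week change (1.64 ± 0.22, adjusted p = 2.71e-06). After 8 weeks Kif20a, Cenpe and Cenpf had risen by 2.94 ± 0.35, 2.97 ± 0.38 and 2.27 ± 0.33.

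Foxm1, the forkhead factor that drives mitotic genes, was at 0.993, 1.12, 1.11, 0.753 and 1.45 CPM in chow. It ranged from 4.30 to 9.16 (median 4.71) at 8 weeks and from 6.37 to 11.9 (median 9.01) at 16 weeks, all above chow. The changes were 2.34 ± 0.24 and 3.02 ± 0.24 (adjusted p = 1.2e-07 and 3.22e-09).

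Markers of cell types were read in the same groups. Among all genes 30.8% were called higher and 20.5% lower at 8 weeks, 29.4% and 22.5% at 16 weeks, and 10.6% and 11% between them. The fit without 8-week replicate 3 tested 17033 genes and had 5362 higher and 4386 lower at 8 weeks. It had 5953 and 5355 at 16 weeks, and 2527 and 2123 between 8 and 16 weeks. The 5 pan-leukocyte markers, Ptprc among them, were all called higher at both times and summed to 60.9 to 95.1 CPM in chow, 229 to 707 at 8 weeks and 339 to 577 at 16 weeks. Monocyte and macrophage markers (10 of 10 higher at 8 weeks, 9 of 10 at 16 weeks) summed to 321 to 439, 1315 to 7145 and 2609 to 4567 CPM, with 2 of them under 1 CPM in every chow liver. Stellate cell and myofibroblast markers (6 of 8 higher at both times) summed to 281 to 412, 698 to 1663 and 1406 to 2033 CPM. Bile duct markers (4 of 6 higher at 8 weeks, 6 of 6 at 16 weeks, and 5 of 6 between them; 3, 6 and 6 without 8-week replicate 3) summed to 50.8 to 85.1, 95.0 to 480 and 452 to 1510 CPM. T and NK cell markers (7 of 8 higher and 1 lower at both times) summed to 7.54 to 9.61, 8.19 to 54.3 and 14.2 to 51.0 CPM. Of the 8 hepatocyte markers, 3 were higher and 1 lower at 8 weeks (2 and 2 without replicate 3), 3 were lower at 16 weeks (4 without 8-week replicate 3), and 6 were lower at 16 than at 8 weeks (median -1.16, and -0.65 without 8-week replicate 3); their sums were 105781 to 153228, 105981 to 457347 and 82339 to 114682 CPM. Of 5 red blood cell precursor markers tested, 1 was lower at 8 weeks, 3 at 16 weeks and 4 at 16 against 8 weeks (2 without 8-week replicate 3), with sums of 305 to 452, 180 to 1026 and 114 to 209 CPM. At 8 weeks the hepatocyte and red blood cell counts lay near the shares of all genes and are not read as a result. Of 6 sinusoidal endothelial markers, 2 were higher at 8 weeks (5 without replicate 3), and 1 was higher and 1 lower at 16 weeks. Of 6 B and plasma cell markers, 3 were higher at 8 weeks and 6 at 16 weeks. Of 6 squamous epithelium markers tested, 6 were higher at 8 weeks and 5 at 16 weeks. Without 8-week replicate 3, 5 were tested and 5 were higher at both times. Of 5 fat tissue markers tested, 1 was higher at 8 weeks, and 1 was higher and 1 lower at 16 weeks. With all libraries, the sinusoidal endothelial and fat tissue counts at both times lay near the shares of all genes and are not read as a result. The 22 mitotic members themselves summed to 24.6 to 34.6, 119 to 220 and 148 to 371 CPM. The part of each cell type in the member values was not tested.

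Between 8 and 16 weeks of diet 11 members were called, 8 of them mitotic, and 37 were not, which does not show that these held their level. At 16 weeks 10 members were called higher than at 8 weeks and 1 lower, where 21.6% of all genes were called, 10.6% higher and 11% lower. In G1, 1 member rose and 1 fell, 1 S member rose, and 8 of 22 mitotic members rose. The medians were 0.01 for G1, 0.19 for S and 0.56 for mitotic members, beside 0.00 over all genes. Groups did not overlap for 1 member, Ccnd2, and 2.58% of all genes were higher without overlap. Without 8-week replicate 3, 11 members rose, 9 of them mitotic, and 1 fell. In that fit 2527 of 17033 genes were higher and 2123 lower.

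**Figure D5:**
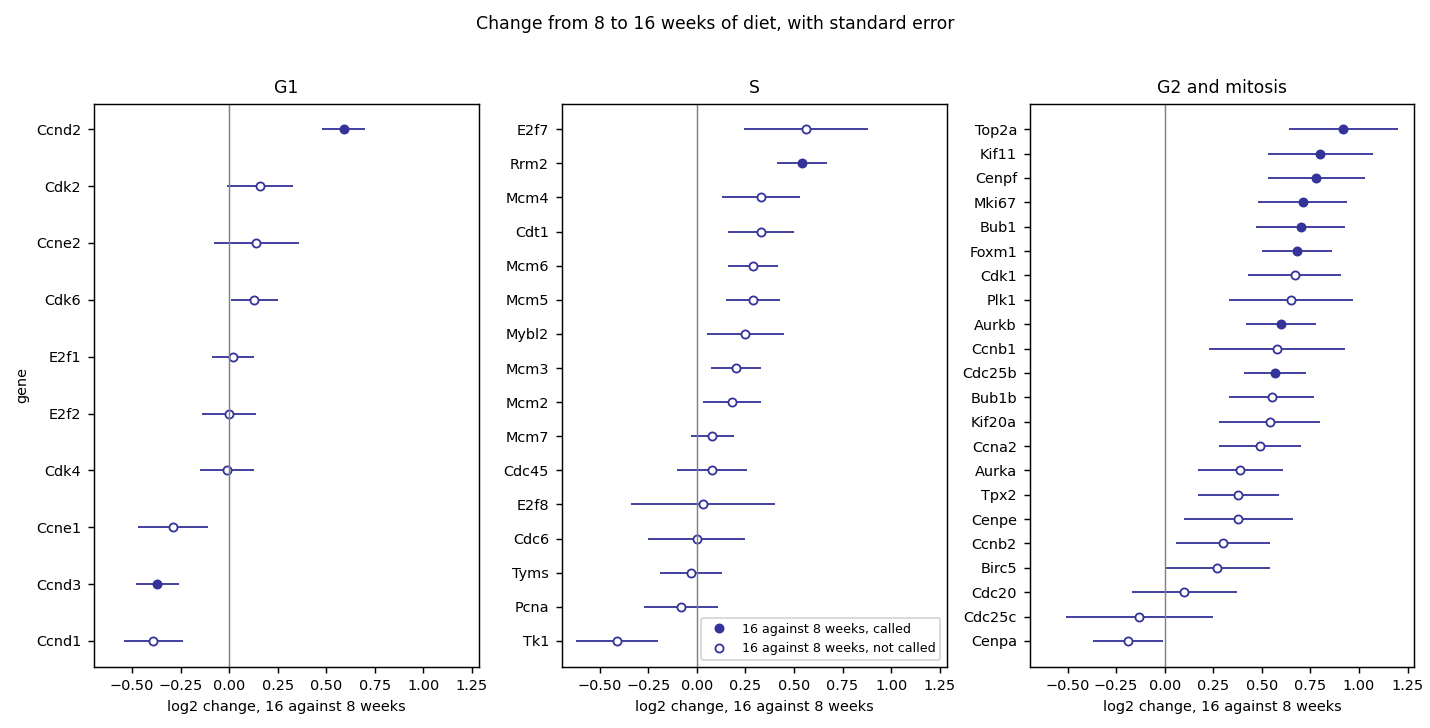
Log2 change from 8 to 16 weeks of diet (horizontal axis, bars are standard errors) for each gene in the 3 phase panels; filled points were called and open points were not. Top2a (0.92) is the largest mitotic change, Ccnd2 (0.59) the largest in G1, and Ccnd1 (-0.39) and Tk1 (-0.41) are the lowest, neither called.

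The count of 10 depended on single livers. It was 6 without 8-week replicate 5 or 16-week replicate 2, 5 or 6, and 4 without 16-week replicate 8; the mitotic count of 8 became 5 without 8-week replicate 4, 4 without 8-week replicate 5 or 16-week replicate 2, 5 or 6, and 2 without 16-week replicate 8. Leaving out 8-week replicates 3, 4 and 5 together left 3 members higher (Ccnd2, Rrm2 and Top2a), and leaving out the 5 libraries high in squamous transcripts gave 20. Among all genes the number called higher moved too, from 1814 with all libraries. It was 1604 and 1512 without 8-week replicate 4 or 5, and 1487, 1451, 1501 and 1344 without 16-week replicate 2, 5, 6 or 8. The 2 joint omissions gave 1649 and 2941.

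Ccnd2 (0.59 ± 0.11, adjusted p = 0.00151), Rrm2 (0.54 ± 0.13, adjusted p = 0.00808), Foxm1 (0.68 ± 0.18, adjusted p = 0.0128) and Cdc25b (0.57 ± 0.16, adjusted p = 0.0139) were called in all 21 fits that left out 1 library. Top2a showed the largest change (0.92 ± 0.28, adjusted p = 0.0254), which was lost without 16-week replicate 8 (adjusted p = 0.0582), as was Aurkb (0.60 ± 0.18, adjusted p = 0.0222, and 0.0513 without it). Mki67 (0.71 ± 0.23, adjusted p = 0.0305) was lost without 8-week replicate 5 or 16-week replicate 2, 5, 6 or 8 (adjusted p between 0.0535 and 0.0806). Cenpf (0.78 ± 0.25, adjusted p = 0.032) was lost without 8-week replicate 4 or 5 or 16-week replicate 2, 5, 6 or 8. Bub1 (0.70 ± 0.23, adjusted p = 0.0363) was lost in the fits without 8-week replicate 1, 4, 5 or 8 or 16-week replicate 2, 5, 6, 7 or 8. Kif11 (0.80 ± 0.27, adjusted p = 0.0397) was lost without 8-week replicate 1, 2, 4, 5 or 8 or 16-week replicate 2, 5, 6, 7 or 8 (adjusted p at most 0.0886 for these genes).

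The member called lower was Ccnd3 (-0.37 ± 0.11, adjusted p = 0.0216), whose sign turned (0.07) under scaling by library totals and whose neighbour Bysl was lower too (-0.43 ± 0.10, adjusted p = 0.00467). Ccnd1 was not called (-0.39 ± 0.15, adjusted p = 0.0673), and it was called lower without 8-week replicate 4, 5 or 6 (adjusted p = 0.0379, 0.049 and 0.0448). Cdk1 just missed the threshold (0.67 ± 0.24, adjusted p = 0.0525), and passed it without 8-week replicate 2, 6 or 7 or 16-week replicate 1 or 4 (adjusted p between 0.0264 and 0.0469). Bub1b (0.55 ± 0.22, adjusted p = 0.0694) passed without 8-week replicate 3 or 6 (adjusted p = 0.0355 and 0.0308). Cdc20, with 0.10 ± 0.27 (adjusted p = 0.81), and Cenpa, with -0.19 ± 0.18 (adjusted p = 0.471), were not called. The other mitotic members that were not called were Ccna2, Ccnb1, Ccnb2, Cdc25c, Plk1, Aurka, Birc5, Tpx2, Kif20a and Cenpe, between -0.13 ± 0.38 (Cdc25c) and 0.65 ± 0.32 (Plk1). In S phase the 15 not called lay between -0.41 ± 0.21 (Tk1, adjusted p = 0.165) and 0.56 ± 0.32 (E2f7, adjusted p = 0.217).

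The same few livers were highest or lowest for most mitotic members. Among the 16-week livers, replicate 2 had the highest value for 16 of the 22 and replicate 8 for the other 6, while replicate 4 had the lowest for 12 and replicate 1 for 8. At 8 weeks, replicate 6 was the highest for 14 and replicate 2 for 7, and replicate 3 the lowest for 11. The S-phase order differed at its top: 16-week replicate 3 was the highest for 9 of 16 S members, and none of the 22 mitotic members peaked there. Its low end was shared, with 16-week replicates 1 and 4 the lowest for 6 and 5 of 16 S members. Replicates 2 and 8 also stood high for S members, with median ranks of 2 and 3 from the highest. The median coefficient of variation of the mitotic members was 23.7% in chow, 36.1% at 8 weeks (31.4% without replicate 3) and 38.1% at 16 weeks. For G1 members the medians were 12.5%, 24.6% (15% without replicate 3) and 15%.

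Marker sums of these livers are given beside that order. The mitotic members summed to 371 and 302 CPM in 16-week replicates 2 and 8, to 173 in replicate 3 and to 158 and 148 in replicates 1 and 4. Bile duct markers summed to 1510, 1114, 1247, 452 and 587 CPM in the same 5 livers and pan-leukocyte markers to 494, 577, 496, 339 and 422 CPM. In 16-week replicates 5, 6 and 7 the mitotic sums were 220, 214 and 199 CPM. Their bile duct sums were 1016, 1023 and 643 CPM and their pan-leukocyte sums 449, 474 and 376 CPM. At 8 weeks, replicates 6 and 2 had mitotic sums of 220 and 216 CPM, with 284 and 480 CPM of bile duct and 416 and 455 CPM of pan-leukocyte markers. The 8-week replicate 3 had a mitotic sum of 129 CPM with 111 CPM of bile duct markers and the highest pan-leukocyte sum, 707 CPM. In 8-week replicates 1, 8, 5, 4 and 7 the mitotic sums were 119, 119, 127, 158 and 186 CPM. Bile duct sums in that order were 95, 204, 161, 212 and 233 CPM, and pan-leukocyte sums 229, 343, 257, 445 and 411 CPM. Squamous transcripts were high in 16-week replicates 1 and 4 and 8-week replicate 3, at the low end of the order. They were also high in 8-week replicate 6, at its high end, and in 16-week replicate 7, with a mitotic sum of 199 CPM. The part of these cells in the order of the livers was not tested.

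Other genes of the same pathways were read from lists of the same kind, and their counts stand beside 30.8% higher and 20.5% lower among all genes at 8 weeks, 29.4% and 22.5% at 16 weeks, and 10.6% and 11% between 8 and 16 weeks. The fit without 8-week replicate 3 tested 17033 genes and had 5362 higher and 4386 lower at 8 weeks. It had 5953 and 5355 at 16 weeks, and 2527 and 2123 between 8 and 16 weeks. Of 50 further spindle, kinetochore and cytokinesis genes, 49 were tested (Cks2 was not); 38 rose and 1 fell at 8 weeks, 44 rose and 1 fell at 16 weeks, and 10 rose and 1 fell between them, with medians of 2.12, 2.66 and 0.49. Without 8-week replicate 3, 43, 45 and 14 rose and 1 fell in each. Ube2c, the ubiquitin-conjugating enzyme of the anaphase-promoting complex, rose by 3.70 ± 0.41 and 3.85 ± 0.41, Ckap2 by 3.64 ± 0.42 and 4.11 ± 0.42, Troap by 3.42 ± 0.45 at 8 weeks and the hyaluronan receptor Hmmr by 3.82 ± 0.37 at 16 weeks. Prc1, Kif18b and Kif15 led the 16 against 8 week calls (0.81 ± 0.25, 0.70 ± 0.25 and 0.69 ± 0.20), Kif18b losing its call without 8-week replicate 3 (adjusted p = 0.0545). The gene that fell was Ccnf, cyclin F, from 34.3 ± 5.93 CPM in chow to 26.5 ± 3.28 and 17.4 ± 0.81 CPM (-0.38 ± 0.11 and -0.98 ± 0.11, adjusted p = 0.00644 and 1.42e-07; -0.61 ± 0.09 between 8 and 16 weeks, adjusted p = 0.000225).

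Of 43 further origin and fork genes, 19 rose and 3 fell at 8 weeks and 17 rose and 2 fell at 16 weeks (20 and 3, and 23 and 4, without 8-week replicate 3), with a median of 0.28 at both times, beside 0.16 and 0.03 over all genes. Among all genes 30.8% and 29.4% were higher and 20.5% and 22.5% lower. Of the 17033 genes tested without 8-week replicate 3, 5362 and 5953 were higher and 4386 and 5355 lower. Gins2, a subunit of the active helicase, rose by 1.99 ± 0.23 and 2.53 ± 0.24, Uhrf1, which guides maintenance methylation, by 1.73 ± 0.31 and 2.45 ± 0.31, Chaf1b by 1.96 ± 0.54 at 8 weeks (1.0 without replicate 3) and Clspn by 2.04 ± 0.29 at 16 weeks. Mcm10 fell by 0.85 ± 0.29 and 1.59 ± 0.28 (adjusted p = 0.0182 and 8.07e-05), from 102 ± 57.2 CPM in chow to 56.6 ± 20.3 and 33.8 ± 7.96 CPM. Rfc1, the large subunit of the clamp loader, fell by 0.45 ± 0.11 and 0.31 ± 0.11, and Orc4 fell by 0.33 ± 0.14 at 8 weeks. Between 8 and 16 weeks 3 rose (Uhrf1, Pole and Gins2, by 0.72 ± 0.24, 0.56 ± 0.20 and 0.54 ± 0.18) and 3 fell, among them Pold2 and Mcm10 (by 0.75 ± 0.23 and 0.74 ± 0.26). Without 8-week replicate 3 the counts were 7 and 2, and Pold2 fell by 0.39. Among all genes 10.6% rose and 11% fell in this comparison, and without that replicate 2527 and 2123 of 17033. These counts are not read as a result about the list.

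Genes that brake the cycle were read too. Of 10 CDK inhibitors and pocket proteins, 5 rose and 1 fell at 8 weeks, and 7 rose and 1 fell at 16 weeks. Between 8 and 16 weeks 1 fell (3 rose and none fell without 8-week replicate 3). Among all genes 30.8% rose and 20.5% fell at 8 weeks, 29.4% and 22.5% at 16 weeks, and 10.6% and 11% between them. Without 8-week replicate 3, 2527 of 17033 genes rose and 2123 fell between 8 and 16 weeks. The count that fell between 8 and 16 weeks is near the share of all genes and is not read as a result about the list. Cdkn2a, the locus of p16 and p19Arf, averaged 0.0711 ± 0.0575, 1.05 ± 0.862 and 0.476 ± 0.177 CPM (3.74 ± 0.57 and 2.66 ± 0.56, adjusted p = 2.13e-05 and 0.000451). It was called lower between 8 and 16 weeks (-1.08 ± 0.38, adjusted p = 0.0474), a call lost without 8-week replicate 3 (-0.67, adjusted p = 0.106). Cdkn1c, p57, rose by 2.30 ± 0.43 and 2.96 ± 0.44, and Cdkn2c, p18, by 1.38 ± 0.21 and 1.83 ± 0.22. Rbl2, the pocket protein p130 of quiescent cells, fell by 1.12 ± 0.28 and 0.84 ± 0.28 (adjusted p = 0.00247 and 0.0155), from 64.9 ± 2.09 CPM in chow to 29.7 ± 12.3 and 36.2 ± 6.03 CPM.

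None of 11 other E2F, DP and MuvB genes rose at either time, while 4 fell at 8 weeks and 3 at 16 weeks. Among all genes 30.8% and 29.4% rose and 20.5% and 22.5% fell at these times. The count that fell at 16 weeks lies near that share and is not read as a result about the list. Without 8-week replicate 3, 7 fell at each time and 1 rose at 8 weeks. In that fit 4386 and 5355 of 17033 genes fell. Tfdp2, a dimer partner of E2Fs, fell by 1.03 ± 0.15 and 0.92 ± 0.15, E2f3 by 0.79 ± 0.18 and 0.53 ± 0.18, Lin54, the MuvB subunit that binds the CHR, by 0.68 ± 0.22 at 8 weeks, and E2f6 by 0.45 ± 0.13 at 16 weeks. Of 15 matched subunits of the APC/C and SCF ubiquitin ligases, 5 rose and 4 fell at 8 weeks and 2 rose and 3 fell at 16 weeks (4 and 4 at 8 weeks and 5 and 4 at 16 weeks without 8-week replicate 3). Beside 30.8% of all genes higher and 20.5% lower at 8 weeks, and 29.4% and 22.5% at 16 weeks, these counts are not read as a result about the list. Anapc11, Cdc16 and Anapc2 rose by 1.09 ± 0.42, 0.69 ± 0.24 and 0.56 ± 0.17 at 8 weeks (0.40, not called with adjusted p = 0.0638, 0.36 and 0.34 without replicate 3), Anapc4 and Fzr1 by 0.69 ± 0.14 and 0.47 ± 0.10 at 16 weeks. Cdc27 and Anapc1 fell by 0.71 ± 0.14 and 0.58 ± 0.13 at 8 weeks and by 0.62 ± 0.14 and 0.44 ± 0.13 at 16 weeks, Fbxw7 by 0.48 ± 0.12 at 8 weeks and Cul1 by 0.39 ± 0.14 at 16 weeks.

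Of 14 G0 and other cyclins, kinases and antiproliferative genes, 1 rose and 6 fell at 8 weeks. At 16 weeks none rose and 5 fell, and 20.5% and 22.5% of all genes fell at the 2 times. Without 8-week replicate 3 the counts were 2 and 6 at 8 weeks and 1 and 8 at 16 weeks. In that fit 4386 and 5355 of 17033 genes fell. Tob1, an antiproliferative gene, fell by 1.17 ± 0.38 and 1.35 ± 0.38 from 210 ± 52.4 CPM in chow. Cdk12 fell by 1.26 ± 0.31 and 1.07 ± 0.31 and Ccnt1 by 1.10 ± 0.25 and 1.05 ± 0.25, both genes of transcription elongation, and Cdk7 rose by 0.35 ± 0.12 at 8 weeks. No gene of the E2F, ubiquitin ligase or this last list was called between 8 and 16 weeks with all libraries.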

How the data were processed

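Raw counts per gene, deposited by the authors, were read for 21 liver libraries; the build is GRCm38 per the submitters' processing notes, and no source used here names the aligner, the counting tool or its strand setting. Replicate numbers follow accession order, nothing says that libraries share an animal, and p-values measure the spread between these livers. Identifiers were named with GENCODE M21 (99.72% of 52636). Genes passing filterByExpr (17104, holding 99.961% of counts) were fitted in edgeR 4.0.16 (R 4.3.3) by quasi-likelihood over all 21 libraries with TMM factors, and p-values were adjusted by Benjamini-Hochberg over all of them. CPM values use the TMM factors, and levels per kilobase divide by the merged exon length. The test was checked on simulated counts. Against chow it recovered 14.9% of 1.5-fold changes at both times, 37.3% and 35.8% of 2-fold changes, and 92.4% and 89.4% of 4-fold changes. For 16 against 8 weeks the shares were 31.3%, 50.7% and 90.9%. At most 0.0362% of unchanged genes were called. A member not called is therefore not shown to be unchanged. Promoters come from RefSeq (GRCm38.p6).

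The 48 members, the phase groups and the pathway and marker lists were chosen with earlier results of these data known. Named genes were those of a fixed list of 20, each phase's extremes, all members called lower, not called or called between 8 and 16 weeks, and up to 3 called genes per direction of each pathway list; locations are given for a few. A single gene of the pathway lists is not reported here. Alternatives were DESeq2 1.42.0 (size factors and Wald test), other scalings and filters, fits of only 2 groups, and libraries left out. Exons of 18 members overlap a gene on the other strand, and Ccnd3, Pcna, Tyms, Ccnb1 and Ccnb2 have annotated pseudogenes that could share reads.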

Additional observations from a re-analysis of the deposited data

Results flagged for a closer look

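For 18 of 144 groups of livers (48 members in 3 groups), 1 liver lay far from the nearest other relative to the range of its group; chance gives this in about 1 of 20 groups. Of these, 6 were 8-week replicate 3, the library that stands apart: it was the lowest for Cdk2 (4.31 CPM, next 12.5) and Mcm4 (2.22, next 8.20) and the highest for E2f2 (8.83, next 5.38), Mcm7 (10.8, next 8.15), Tyms (11.1, next 6.90) and Tk1 (23.6, next 11.6). Another 6 were 16-week replicate 2, the highest for Ccnb2 (18.7 CPM, next 11.2), Cdk1 (31.4, next 19.6), Cdc20 (39.1, next 22.6), Aurka (18.8, next 11.7), Birc5 (15.6, next 9.49) and Cenpa (18.2, next 11.9). At 8 weeks replicate 6 was high for Mki67 (23.2 CPM, next 14.8) and Foxm1 (9.16, next 6.43) and replicate 2 for Ccnb2 (13.2, next 8.58). At 16 weeks replicate 3 was high for Pcna (3.97 CPM, next 3.19) and replicate 5 for E2f8 (10.6, next 6.19), and chow replicate 4 was low for Bub1 (0.203 CPM, next 0.368). For 11 members the change from chow differed between 16 and 8 weeks by the test of 16 against 8 weeks (10 higher and Ccnd3 lower).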

How the results depend on the processing

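No paired analysis was possible because the libraries of the 3 groups come from different mice and share no replicate number in the labels. Over 30 alternatives the 22 mitotic members stayed called higher at 8 and 16 weeks in every fit in which they were tested. Scaling by library totals alone gave median changes of 0.27 (G1) at 8 weeks and of 0.97, 1.22 and 3.66 (G1, S, mitotic) at 16 weeks, with 1 member lower (0 G1, 1 S). For 16 against 8 weeks it gave 26 members higher (5 G1, 8 S, 13 mitotic), 0 lower (0 G1) and medians of 0.45 (G1) and 0.54 (S), and Ccnd3 turned sign at 16 weeks (0.21) and at 16 against 8 weeks (0.07). With no filter or a mean of at least 1 CPM, 0 G1 members were lower at 16 weeks. With no filter or with only the 2 groups compared, 0 members (0 G1) were lower at 16 against 8 weeks, and the fit of 2 groups gave 5 mitotic members higher and 2226 genes called. Without 8-week replicates 3, 4 and 5, 3 members (1 mitotic) and 1649 of all genes were higher at 16 against 8 weeks. Without the 5 libraries high in squamous transcripts, 20 members (3 S, 16 mitotic) were higher there, 5579 genes were called, and the 8-week G1 median was 0.07. Leaving out each library in turn gave 0 to 1 G1 members lower at 16 weeks and, at 16 against 8 weeks, 4 to 12 members higher, 1 to 2 lower (1 to 2 G1), 2 to 10 mitotic members higher and 2248 to 5132 genes called. The cause of these shifts was not tested. Depth limits Ccnb1 and Cdc25c in chow, with 15 and 8 counts.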
